A study of Homo sapiens with 6 samples.

Results

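Neurotransmitter-gated ion channels are membrane proteins built from several subunits that open a pore when a transmitter binds. The subunit genes were chosen by symbol: those of the GABA-A, glycine, nicotinic acetylcholine and 5-HT3 serotonin receptors, and those of the AMPA, kainate, delta and NMDA classes of glutamate receptor. The symbol rule used no measured change, though it was chosen with earlier results of these data known. By it 57 of the 18417 genes on the arrays were members. They were 15 GABA-A, 5 glycine, 15 nicotinic, 5 5-HT3, 4 AMPA, 5 kainate, 1 delta and 7 NMDA receptor genes. A further 6 protein-coding genes with such symbols were not analysed here. The glycine group includes GLRA4, which RefSeq lists as a pseudogene in humans.

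Levels came from 6 Affymetrix whole-transcript arrays of the long-established human rhabdoid tumour line A204. For the 3 SAHA arrays the cells had received SAHA (vorinostat, which inhibits histone deacetylases) for 12 h, and for the 3 control arrays DMSO, a solvent, per the treatment protocol. Another label gives the control treatment as none, and the printed unit of the SAHA dose is incomplete, so the concentration is not stated here. Everything was measured in this 1 line, grown in DMEM with serum. Whether the arrays are of separate cultures is not said in the labels, so a p-value here reflects only array-to-array spread, possibly technical.

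The GABA-A, glycine, nicotinic and 5-HT3 receptors are pentamers of the cysteine-loop family. GABA-A and glycine receptors pass chloride and carry most fast inhibition in the brain and spinal cord, whereas nicotinic and 5-HT3 receptors pass cations and excite. Glutamate receptors are cation-selective tetramers of another family and carry most fast excitation in the brain. Many subunit genes are silenced outside neurons by the repressor REST, whose corepressor complexes contain histone deacetylases.

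GABRG1, which encodes the gamma1 subunit of the GABA-A receptor, rose 20.3-fold and was the member with the largest change. GABRQ, the theta subunit of the same receptor, rose 4.29-fold and CHRNA3, an alpha subunit of ganglionic nicotinic receptors, rose 2.19-fold. GLRA3, an alpha subunit of the glycine receptor, was 3.43-fold lower and GABRG3, the gamma3 subunit of the GABA-A receptor, was 2.0-fold lower. No subunit of a glutamate or 5-HT3 receptor changed as much as 2-fold.

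Of the 57 members, 15 were higher, 8 were lower and 34 did not pass at a Benjamini-Hochberg adjusted p under 0.05 over all genes (limma), so 40.4% were called. Among all 18417 genes 60.0% were called, 31.1% higher and 28.9% lower, so the members' share lay under the background. The groups' values did not overlap for 25 members (43.9%), against 65.4% of all genes. Changes of at least 2-fold were called for 5 of the 57 members (3 higher, 2 lower), while 11.3% of all genes passed that mark. Without control replicate 2 only 3 members passed it, since CHRNA3 was then at 0.98 and GABRG3 at -0.90. With 50 added to every signal before the logarithm 3 passed it as well. GABRG3 only just met the mark, at -1.0. It was also short of it without control replicate 1 (-0.89), SAHA replicate 2 (-0.9955) or SAHA replicate 3 (-0.9912). The median change of the members was -0.0045 on the log2 scale, beside -0.0027 over all genes, and the median size of change regardless of direction was 0.13 beside 0.24. With the arrays quantile normalized again, 14 members were higher and 15 lower, so that rises made up 48.3% of the members' calls in place of 65.2%. The 7 genes gained there, all lower, were HTR3C, HTR3A, GABRE, GLRA4, GRIK3, CHRNA1 and CHRNA2, and CHRNA10 was lost.

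Most of the subunit genes gave low signals. Only 4 members (CHRNA9, CHRNA5, GABRA2 and CHRNA7) had a mean over the 6 arrays at or above 8.14, the median of all genes in log2 units. Of the 53 members under that median 20 were called (37.7%), and of all genes under it 40.6% were called. The groups' values did not overlap for 41.5% of these members and for 45.5% of those genes. All 5 members called with at least 2-fold lay there, so 3 of the 53 were higher and 2 lower by that much. Of the 9208 genes under the median 464 were higher and 236 lower by that much. Detection calls were not used here, so a low level may be background, and a fold from or to such a level may be larger in the RNA than on the array.

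**Figure D1:**
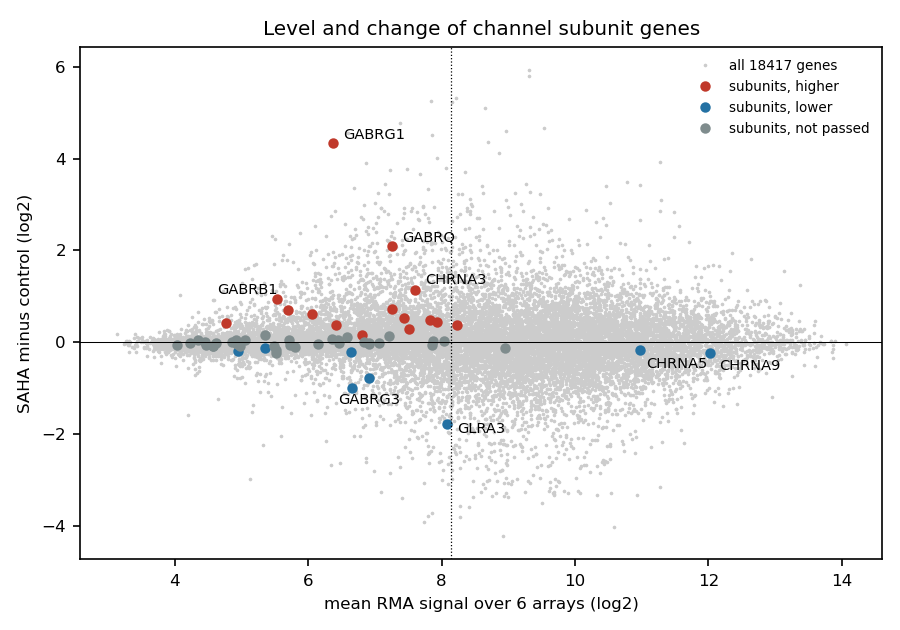
Mean RMA signal over the 6 arrays (log2, x axis) against the difference SAHA minus control (log2, y axis) for all 18417 genes (grey) and the 57 channel subunit genes (red higher, blue lower, dark grey not passed; limma adjusted p under 0.05). The dotted line is the median level of all genes, 8.14; 53 members lie to its left, and GABRG1 stands highest at 4.34.

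**Figure D2:**
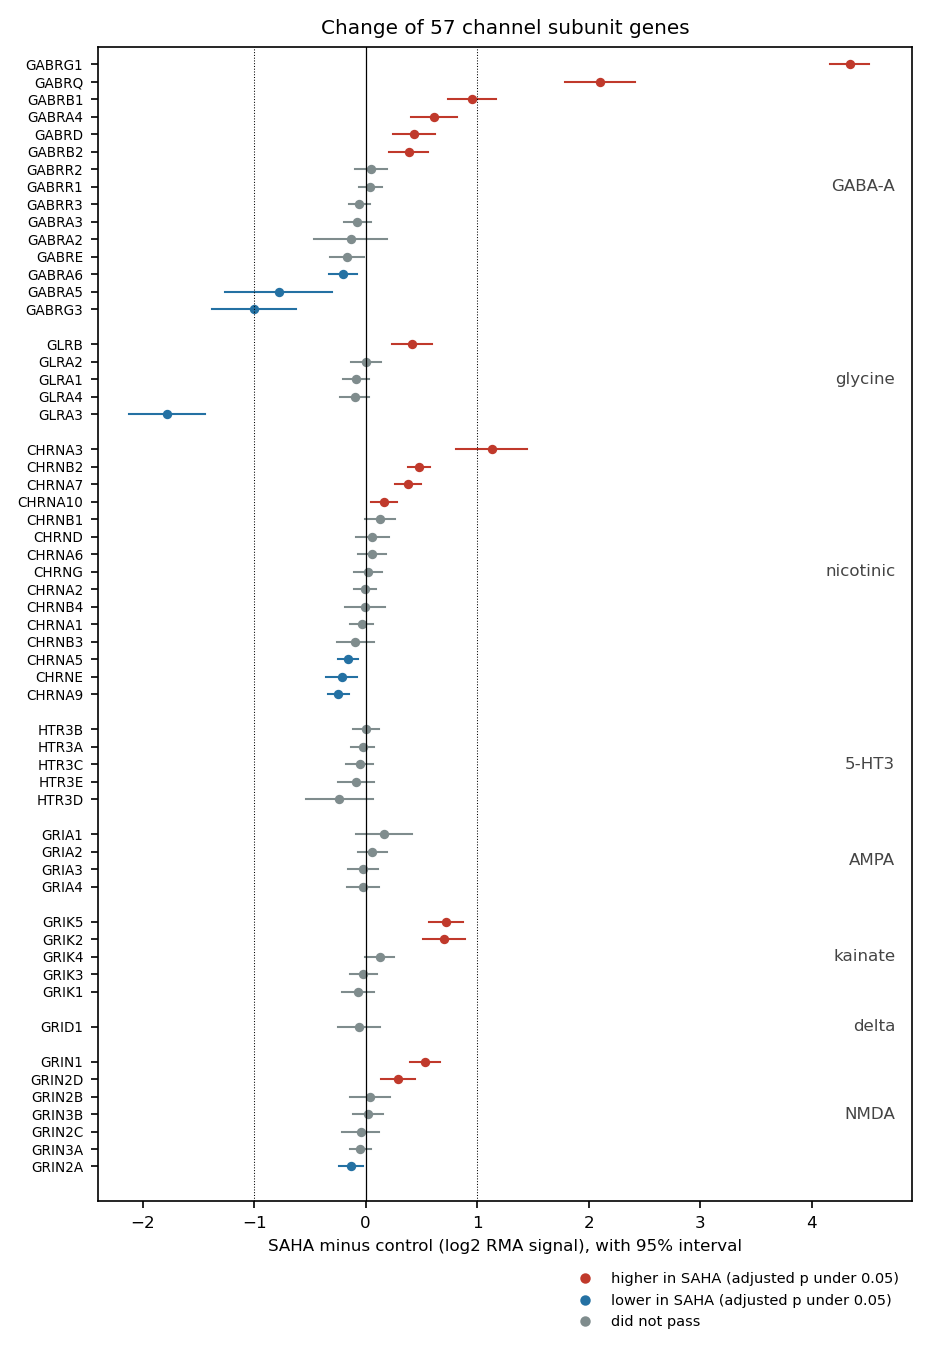
Difference SAHA minus control in log2 RMA signal for each of the 57 subunit genes by receptor family, with its 95% interval from limma; dotted lines mark 2-fold. Differences run from -1.78 for GLRA3 to 4.34 for GABRG1, and most of the 34 members that did not pass lie close to 0.

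The GABA-A receptor genes held the widest range of changes. Most such receptors combine alpha and beta subunits, between which GABA binds, with another kind of subunit (gamma, delta, epsilon or theta) that sets location and drug response. Of 15 measured genes 6 were higher, 3 lower and 6 did not pass, which is 60.0% called and equal to the share of all genes. All but GABRA2 had a mean under the median level, where 40.6% of all genes were called. Both directions occurred among alpha and among gamma subunits.

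The log2 signal of GABRG1 was 4.22, 4.33 and 4.07 on the control arrays and 8.64, 8.53 and 8.47 on the SAHA arrays. The groups were far apart, from 4.21 ± 0.13 to 8.55 ± 0.08 (SD, n = 3), a difference of 4.34 with SE 0.07 (limma adjusted p = 7.64e-09). The control level is low, and with 50 added to every signal before the logarithm, which by construction shrinks changes of dim genes, the difference was 2.63. The gamma1 subunit is known for sparse expression in the brain and for a weak response to classical benzodiazepines.

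GABRQ was at 6.16, 5.95 and 6.53 on the control arrays and at 8.42, 8.21 and 8.31 on the SAHA arrays. Every SAHA value exceeded every control value, with a difference of 2.10 (SE 0.14, limma adjusted p = 3.47e-06). The theta subunit is found mainly in monoamine cell groups and the hypothalamus.

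Smaller rises were those of GABRB1, GABRA4, GABRD and GABRB2, none of which reached 2-fold. GABRB1, the beta1 subunit, went from 5.10, 5.02 and 5.02 on the control arrays to 6.19, 5.79 and 6.03 on the SAHA arrays, a difference of 0.95 (limma adjusted p = 4.17e-05). GABRA4, the alpha4 subunit, changed by 0.62 and GABRD, the delta subunit, by 0.43. These subunits combine in receptors outside synapses that give a lasting current. GABRB2, the beta2 subunit, changed by 0.39. With 50 added to the signals the differences of GABRB1, GABRA4 and GABRB2 were 0.46, 0.35 and 0.24, each still past the threshold.

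GABRG3 was at 7.38, 7.36 and 6.72 on the control arrays and at 6.18, 6.14 and 6.13 on the SAHA arrays. GABRA5, the alpha5 subunit known from extrasynaptic receptors of the hippocampus, was at 7.48, 7.66 and 6.76 on the control arrays and at 6.65, 6.47 and 6.44 on the SAHA arrays. For both genes the third control array was the lowest control, yet it stayed above all SAHA arrays. The difference was -1.0 for GABRG3 (SE 0.16, limma adjusted p = 0.000805) and -0.78 for GABRA5 (SE 0.21, limma adjusted p = 0.0116). Without control replicate 3 these differences were -1.22 and -1.05. They were -0.89 and -0.69 without control replicate 1, and -0.90 and -0.60 without control replicate 2. All were called, that of GABRA5 narrowly without control replicate 1 or 2 (limma adjusted p = 0.0457 and 0.0381). GABRA6, the alpha6 subunit of cerebellar granule cells, changed by -0.20 (limma adjusted p = 0.0132), and its call ended when 50 was added to the signals (adjusted p = 0.0676, and 0.00651 to 0.0676 over 15 alternatives).

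GABRA2, the alpha2 subunit, gave the highest signal of the GABA-A genes that did not pass. Its control values were 8.78, 8.89 and 9.37 and its SAHA values 8.95, 8.79 and 8.89, so the groups overlapped. The difference was -0.14 with a 95% interval from -0.46 to 0.19 (limma adjusted p = 0.445), and without control replicate 3, the highest array, it was 0.04. GABRE, the epsilon subunit, was at -0.17 just outside the threshold (adjusted p = 0.0574), and it passed in 5 of 16 alternatives (adjusted p from 0.0154 to 0.171). These were a further quantile normalization (0.0154), cyclic loess scaling (0.0373), array weights (0.0325), and the fits without control replicate 2 (0.0277) or SAHA replicate 2 (0.0256). GABRA3 and the 3 rho subunit genes, which form receptors of the retina, did not pass, with differences of -0.08 to 0.05.

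**Figure D3:**
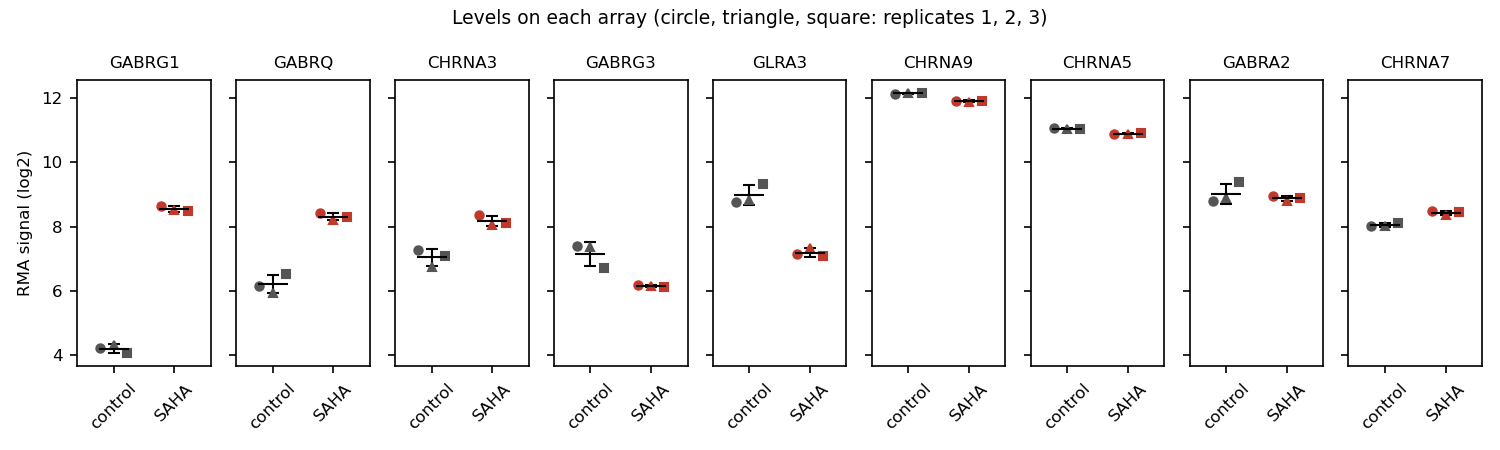
Log2 RMA signal on each array (symbols for replicates 1, 2 and 3; bar and whiskers, mean ± SD, n = 3) of the 5 members changed at least 2-fold and of the other members with the highest mean signal. GABRG1 moves from 4.21 to 8.55, whereas GABRA2 overlaps between groups; levels of different panels come from different probe sets and are not compared.

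The 250 bases before the annotated start of the 4 members with the largest changes are shown because these are the windows in which the rising and falling genes can be set side by side. They come from RefSeq on GRCh38.p14, are written on the strand of the gene, and carry in capitals each match on either strand to GGGCGG (the GC box, CCGCCC on the other strand) or CCAAT (the CCAAT box, ATTGG on the other strand).
GABRG1: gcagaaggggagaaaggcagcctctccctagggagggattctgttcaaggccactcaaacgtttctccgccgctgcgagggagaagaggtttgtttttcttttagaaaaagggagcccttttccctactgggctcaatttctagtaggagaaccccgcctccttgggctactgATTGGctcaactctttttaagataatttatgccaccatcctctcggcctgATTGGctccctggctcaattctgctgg
GABRQ: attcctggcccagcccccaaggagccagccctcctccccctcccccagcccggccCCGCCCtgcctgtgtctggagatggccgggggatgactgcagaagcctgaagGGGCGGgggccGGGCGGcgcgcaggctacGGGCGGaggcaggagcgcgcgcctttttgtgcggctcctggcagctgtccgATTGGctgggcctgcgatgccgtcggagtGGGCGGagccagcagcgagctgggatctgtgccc
GLRA3: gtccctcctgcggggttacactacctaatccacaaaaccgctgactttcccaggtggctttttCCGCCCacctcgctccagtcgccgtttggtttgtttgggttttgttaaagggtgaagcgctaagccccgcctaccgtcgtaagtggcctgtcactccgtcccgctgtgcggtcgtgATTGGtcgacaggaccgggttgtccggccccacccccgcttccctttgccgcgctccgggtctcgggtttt
CHRNA3: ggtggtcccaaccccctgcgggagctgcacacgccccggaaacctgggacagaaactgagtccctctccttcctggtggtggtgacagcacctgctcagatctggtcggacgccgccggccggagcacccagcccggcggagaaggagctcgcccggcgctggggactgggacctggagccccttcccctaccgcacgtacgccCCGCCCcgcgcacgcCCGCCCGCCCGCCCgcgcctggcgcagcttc
The GABRG1 window lies at chr4:46124055-46124304 on the minus strand, that of GABRQ at chrX:152637645-152637894 on the plus strand, that of GLRA3 at chr4:174829248-174829497 on the minus strand and that of CHRNA3 at chr15:78620997-78621246 on the minus strand.

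The letters of these windows differ among the genes that rose. GABRG1 has no GC box and 2 CCAAT boxes, which begin at -77 and -27 from the start, and 6 CpG dinucleotides. GABRQ has 5 GC boxes, 1 CCAAT box and 20 CpG dinucleotides. CHRNA3 has 4 GC boxes, 3 of them overlapping, no CCAAT box and 26 CpG dinucleotides. GLRA3, which fell, has 1 GC box, 1 CCAAT box and 22 CpG dinucleotides.

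Of the 57 members 42 had a promoter in the table. A GC box was found in 21 of 42 (50%) and in 42.6% of all 35114 promoter windows, and a CCAAT box in 17 (40.5%) against 32% of all. The 35114 windows were not limited to the genes on the arrays. Among the members with a window, a GC box was in 6 of 13 that were higher, 4 of 6 that were lower and 11 of 23 that did not pass. CCAAT boxes were in 7 of 13, 3 of 6 and 7 of 23 in that order. The cAMP element TGACGTCA was in none of the 42 windows and in 1.65% of all, and TATAAA in 2 of 42 and 10.7% of all, both of them of genes that did not pass. These matches describe letters and not binding.

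Glycine receptors hold alpha subunits, which bind glycine, and the beta subunit GLRB, which ties the receptor to the gephyrin scaffold. Of 5 genes 1 was higher, 1 lower and 3 did not pass, which is 40.0% called. Among all genes 60.0% were called, and 40.6% of those under the median level, where all 5 lay. GLRA3, known from pain pathways of the spinal dorsal horn, was at 8.75, 8.83 and 9.32 on the control arrays and at 7.15, 7.34 and 7.08 on the SAHA arrays. The lowest control lay well above the highest SAHA value, with a difference of -1.78 (SE 0.15, limma adjusted p = 1.4e-05). GLRB rose by 0.41, from 4.42, 4.58 and 4.68 on the control arrays to 4.92, 5.09 and 4.91 on the SAHA arrays (adjusted p = 0.00181), and by 0.15 with 50 added to the signals. GLRA4 was at 5.84 ± 0.08 in control and 5.75 ± 0.05 in SAHA and did not pass (limma adjusted p = 0.166). After a further quantile normalization its difference was -0.18 and passed (adjusted p = 0.0182, and up to 0.403 over the alternatives).

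Nicotinic receptors of muscle are built from the alpha1, beta1, delta, gamma and epsilon subunits. The other subunits are alpha2 to alpha7, alpha9, alpha10 and beta2 to beta4, of which alpha9 and alpha10 are known from hair cells. Among the 10 measured genes that are not of the muscle kind 4 were higher, 2 were lower and 4 did not pass. This is 60.0% called and equal to the share of all genes. All but CHRNA9, CHRNA5 and CHRNA7 had a mean under the median level, where 40.6% of all genes were called. Among the 5 muscle genes CHRNE, the adult epsilon subunit, was lower and 4 did not pass (20.0% called). Only CHRNA3 changed 2-fold among all 15.

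CHRNA3 was at 7.28, 6.75 and 7.09 on the control arrays and at 8.35, 8.05 and 8.10 on the SAHA arrays, so every SAHA value was higher. The difference was 1.13 (SE 0.14, limma adjusted p = 0.000143). Without control replicate 2, the lowest array, it was 0.98 and still called. CHRNB2, the beta2 subunit of the high-affinity brain receptor, was at 7.54, 7.62 and 7.60 on the control arrays and at 8.10, 8.06 and 8.04 on the SAHA arrays. The SD of CHRNB2 was at most 0.04 in a group, and the change of 0.48 was called at limma adjusted p = 2.57e-05.

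CHRNA7, which forms receptors of 1 kind of subunit with high calcium permeability, was at 8.02, 8.01 and 8.11 on the control arrays and at 8.48, 8.36 and 8.44 on the SAHA arrays. It rose by 0.38 (limma adjusted p = 0.00026). Part of this gene is duplicated in a human fusion gene, so its probes could share signal with that copy. CHRNA10, the partner of CHRNA9 in hair cells of the ear, was at 0.17 (adjusted p = 0.0207). That call ended in 5 of 16 alternatives, with adjusted p from 0.0179 to 0.454. Among them were a further quantile normalization (0.05, adjusted p = 0.454), cyclic loess scaling (0.11, adjusted p = 0.0892), and the fits without control replicate 1 (adjusted p = 0.0607) or without SAHA replicate 2 (adjusted p = 0.0732).

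CHRNA9 and CHRNA5 were the members with the highest signals, and both were lower in SAHA by less than 1.2-fold. CHRNA9, known from cochlear hair cells, was at 12.13, 12.15 and 12.14 on the control arrays and at 11.90, 11.86 and 11.92 on the SAHA arrays. Its change of -0.25 exceeded the spread of the arrays (limma adjusted p = 0.000928). CHRNA5, an accessory subunit, was at 11.06, 11.04 and 11.04 on the control arrays and at 10.89, 10.86 and 10.91 on the SAHA arrays. It changed by -0.16 (limma adjusted p = 0.00871). CHRNE changed by -0.22 (adjusted p = 0.013), by -0.33 after a further quantile normalization and by -0.14 with 50 added to the signals, called each time.

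The nicotinic genes that did not pass lay between -0.09 and 0.13. CHRNG, the fetal gamma subunit of muscle, had the highest signal among them, 7.86 ± 0.07 in control and 7.88 ± 0.05 in SAHA. Its difference of 0.02 has a 95% interval from -0.10 to 0.14 and turned to -0.01 after a further quantile normalization.

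No 5-HT3 receptor gene passed in limma, nor at an unadjusted p under 0.05. HTR3A, the subunit that can form a receptor alone, was at 6.92 ± 0.04 in control and 6.89 ± 0.03 in SAHA, with a 95% interval of the difference from -0.13 to 0.07. After a further quantile normalization its difference was -0.15 and passed (adjusted p = 0.0163, and up to 0.923 over 16 alternatives). HTR3D was at -0.23 and did not pass (limma adjusted p = 0.161), but without control replicate 2, its lowest control, the difference was -0.40 and passed (adjusted p = 0.00188, and up to 0.423 over 16 alternatives). The other 3 genes, HTR3B, HTR3C and HTR3E, lay between -0.089 and 0.003.

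Among the 17 measured glutamate receptor genes 4 were higher, 1 was lower and 12 did not pass, which is 29.4% called. All 17 had a mean under the median level, and among all genes under it 40.6% were called. The kainate receptor genes GRIK5 and GRIK2 had the largest changes. GRIK5, a high-affinity subunit that works only with partners such as GRIK2, was at 6.83, 6.88 and 6.98 on the control arrays and at 7.67, 7.50 and 7.69 on the SAHA arrays. GRIK2 was at 5.32, 5.34 and 5.39 on the control arrays and at 5.87, 6.18 and 6.11 on the SAHA arrays. For both genes all SAHA values were above all control values. The difference was 0.72 for GRIK5 (SE 0.07, limma adjusted p = 2.49e-05) and 0.70 for GRIK2 (SE 0.08, limma adjusted p = 0.000103), the latter 0.36 with 50 added to the signals. GRIK4 was at 0.13 (adjusted p = 0.0839), and passed without control replicate 3 (adjusted p = 0.0309, and up to 0.943 over 16 alternatives).

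NMDA receptors need 2 GRIN1 subunits, which bind glycine, beside GRIN2 subunits, which bind glutamate. GRIN1 was at 7.13, 7.21 and 7.18 on the control arrays and at 7.68, 7.62 and 7.81 on the SAHA arrays, without overlap. It rose by 0.53 (limma adjusted p = 7.69e-05). GRIN2D, a subunit of the developing brain and of interneurons, rose by 0.29 (adjusted p = 0.00529). GRIN2A, a subunit of the adult forebrain, was at -0.13 with adjusted p = 0.037, but 9 of 16 alternatives ended that call, with adjusted p from 0.00919 to 0.128. It was lost with the replicate block (adjusted p = 0.0912) and without any one of control replicates 2 and 3 and SAHA replicates 1, 2 and 3 (adjusted p = 0.0947, 0.0587, 0.0522, 0.127 and 0.0818). GRIN3B was at 8.02 ± 0.10 in control and 8.04 ± 0.04 in SAHA, and like the other 3 NMDA genes it did not pass.

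None of the 4 AMPA receptor genes passed in limma, nor at an unadjusted p under 0.05, and their differences ran from -0.02 to 0.16. GRIA1, the member with the largest of these, was at 5.22, 5.46 and 5.14 on the control arrays and at 5.42, 5.62 and 5.27 on the SAHA arrays, which overlap. Its 95% interval runs from -0.09 to 0.41 (adjusted p = 0.241), and it passed with the replicate block alone (adjusted p = 0.0332, and up to 0.609 over 16 alternatives). GRID1, a delta receptor gene whose product binds synaptic adhesion partners, was at 7.88 ± 0.17 in control and 7.82 ± 0.03 in SAHA, and without control replicate 3 its difference turned from -0.06 to 0.04.

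Many subunit genes arose by local duplication and still lie in clusters. In the RefSeq gene order 26 members stood directly beside another member among protein-coding genes, in 12 runs. GABRA5 and GABRG3, neighbours on chromosome 15, both fell. GABRA4 and GABRB1, neighbours on chromosome 4 on opposite strands, both rose. In other runs the calls were mixed. GABRG1 rose by 4.34 beside GABRA2, which did not pass, on chromosome 4. GABRQ rose by 2.10 on chromosome X beside GABRA3, which was at 4.61 ± 0.05 in control and 4.53 ± 0.07 in SAHA.

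The nicotinic run of chromosome 15 held all 3 outcomes. CHRNA3 rose by 1.13, CHRNA5 fell by 0.16, and CHRNB4 was at 7.06 ± 0.12 in control and 7.05 ± 0.11 in SAHA (limma adjusted p = 0.95). On chromosome 5 GABRB2 was higher and its neighbour GABRA6 lower. In 5 other runs, among them the 3 serotonin receptor genes of chromosome 3 and the muscle genes CHRND and CHRNG of chromosome 2, no member passed.

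**Figure D4:**
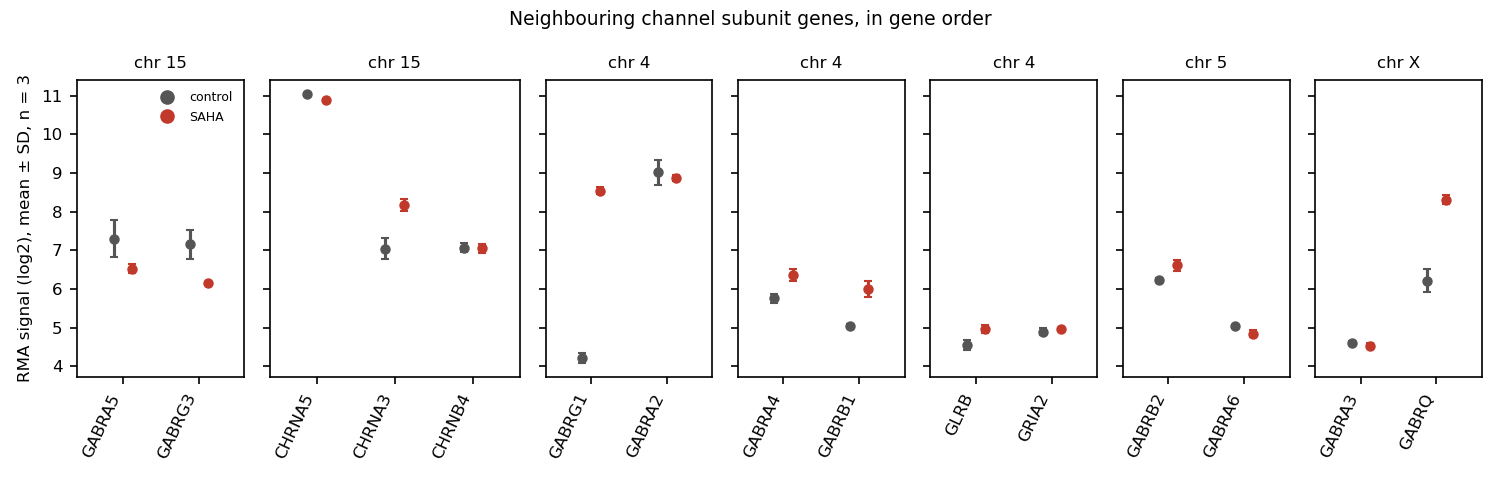
Mean log2 RMA signal ± SD (n = 3) in control (grey) and SAHA (red) of neighbouring member genes, in gene order, for the 7 runs with at least 1 called member. The pair GABRA5 and GABRG3 falls and the pair GABRA4 and GABRB1 rises, while GABRG1, GABRQ and GLRB rise beside a neighbour that does not pass. CHRNA3 rises between CHRNA5, which falls, and CHRNB4, which does not pass.

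Genes that act with these receptors moved in both directions. Their counts are to be read against the 60.0% of all genes called, and against the level of the genes. Of all genes under the median level 40.6% were called, and of those at or above it 79.4%. Of 15 auxiliary subunits of glutamate receptors 4 were higher, 5 lower and 6 did not pass. This is 60.0% called, equal to the share of all genes. The TARP genes were split. CACNG7 and CACNG5 rose by 2.02 and 1.10, CACNG4 and CACNG2 were lower, at -0.95 and -0.50, and CACNG3 and CACNG8 did not pass. SHISA6, an AMPA receptor partner, fell by 1.81 from 11.53 ± 0.03 to 9.73 ± 0.06, and NETO2, a kainate receptor partner, fell by 1.06 from 12.03 ± 0.10 to 10.97 ± 0.03 (SD, n = 3). Of 25 postsynaptic scaffold genes 10 rose and 7 fell (68.0% called). HOMER1, which links receptors to calcium stores, rose by 1.23, whereas its relative HOMER3 fell by 1.02. The adhesion gene NLGN1 rose by 1.38 (0.59 with 50 added to the signals), and GRIP1, an AMPA receptor scaffold, fell by 1.10.

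Of 13 chaperones and clustering genes of acetylcholine receptors 4 rose and 2 fell (46.2% called). AGRN, the agrin gene of the neuromuscular junction, rose by 0.74 and its receptor LRP4 fell by 0.44. RIC3, a chaperone of nicotinic receptors, rose by 0.45 (0.17 with 50 added), and LYPD6B, a modulator of these receptors, fell by 1.18.

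Of 26 G-protein-coupled receptors of the same transmitters 4 rose, 4 fell and 18 did not pass (30.8% called). Most of them had a mean under the median level, where 40.6% of all genes were called. Both GABA-B receptor genes rose, GABBR1 by 1.33 and GABBR2 by 0.55. GRM4, a glutamate receptor, fell by 0.72 and HTR1D, a serotonin receptor, by 0.48.

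Among 17 genes of transmitter synthesis and breakdown 5 rose and 3 fell (47.1% called). ABAT, the transaminase that breaks down GABA, rose 5.94-fold, from 8.23 ± 0.14 to 10.80 ± 0.05 (SD, n = 3). GAD1, which makes GABA, fell by 0.34, while its relative GAD2 was at 0.04 and did not pass. The largest fall of this list was that of SHMT1, at -0.56. MAOA, which degrades serotonin, rose by 1.12 (0.69 with 50 added), GLUL, which makes glutamine from glutamate, by 0.89, and ACHE, which splits acetylcholine, by 0.84.

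Of 6 cation-chloride cotransporters, which set the chloride gradient that GABA and glycine receptors use, 1 rose and 3 fell (66.7% called). SLC12A5, the neuronal chloride extruder KCC2, fell by 0.90 (0.53 with 50 added) and SLC12A7 by 0.68, while SLC12A4 rose by 0.61. SLC12A1 was at -0.18, and its call ended in 8 of 15 alternatives (adjusted p from 0.0207 to 0.128). These included the fits without control replicate 2 (adjusted p = 0.0939), control replicate 3 (0.0983), SAHA replicate 2 (0.0752) and SAHA replicate 3 (0.128). Of 10 ATP-gated and acid-sensing channels 1 rose and 2 fell (30.0% called), led by P2RX4 at -1.35. The call of ASIC1, at -0.20, ended in 5 of 17 alternatives (adjusted p from 0.00813 to 0.11), and that of P2RX6, at 0.31, ended after a further quantile normalization (adjusted p = 0.0758, and 0.00289 to 0.0758 over 16).

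REST itself was lower by 0.25, from 10.31 ± 0.04 to 10.06 ± 0.03 (limma adjusted p = 0.00115). Of its corepressor genes RCOR2 and RCOR3 fell by 0.86 and 0.33, and RCOR1 and SIN3B rose by 0.33 and 0.68. The part of these genes in the changes of the subunits was not tested.

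**Figure D5:**
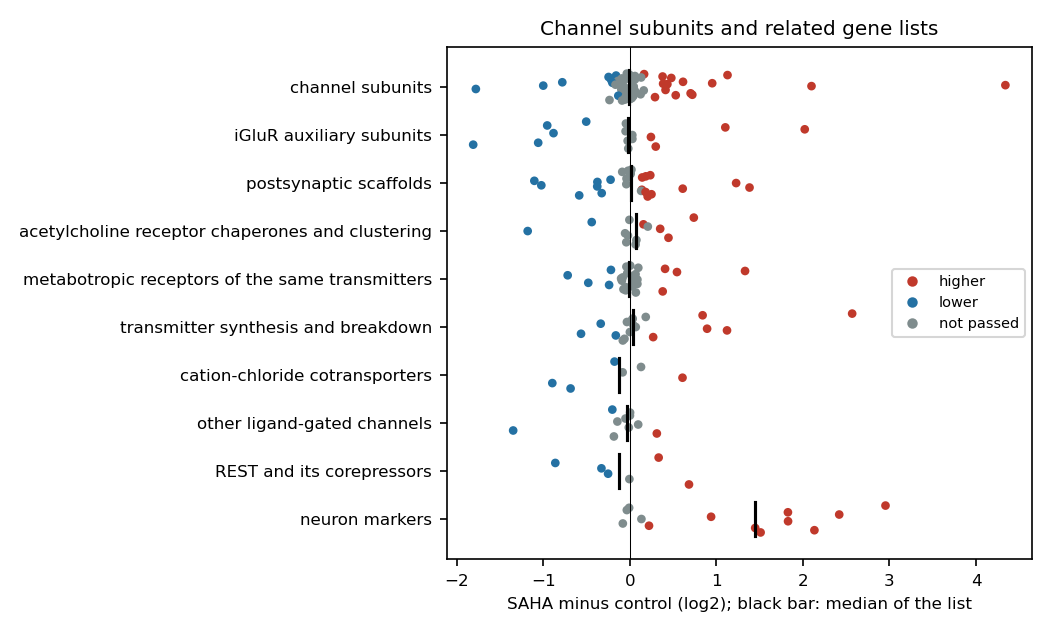
Difference SAHA minus control (log2 RMA signal) of each channel subunit gene and of each gene of 9 other lists; black bars are list medians, red and blue points are genes called higher and lower. The list median is near 0 for the subunits (-0.0045) and 1.45 for the neuron markers.

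Markers of neurons were called higher more often than lower. Of 13 measured neuron markers 9 rose, none fell and 4 did not pass, which is 69.2% called. Among all genes 60.0% were called, and 40.6% of those under the median level, where most of these markers lay. Their median change was 1.45, and their summed linear signal was 2904 to 3581 on the control arrays and 10565 to 10936 on the SAHA arrays. The brightest of them, which weigh most in that sum, were INA (10.48 in control, 12.31 in SAHA) and SYT1 (9.63 and 11.14). The largest rises were those of ELAVL3 (2.95), MAP2 (2.42), SYP (2.13) and NEFM (1.83, or 1.18 with 50 added). RBFOX3, a marker of mature neurons, did not pass, nor did NEFL, ELAVL4 and GAP43. The part of this shift in the subunit changes was not tested, and in bulk RNA more cells of a kind and more RNA per cell cannot be told apart.

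Skeletal muscle markers, relevant to the muscle nicotinic genes, were called in 4 of 10 cases (40.0%), 2 in each direction. Among all genes 60.0% were called, 40.6% of those under the median level and 79.4% of those at or above it. The summed signal of the muscle markers was 1632 to 1813 in control and 1724 to 1774 in SAHA. DES, desmin, rose by 0.76 and CKM by 0.45, and MYOD1 and MYOG did not pass. The lower calls, of MYF6 at -0.14 and TNNT1 at -0.21, each ended in 7 alternatives. None of 6 markers of astrocytes and oligodendrocytes passed in limma, nor at an unadjusted p under 0.05. Of 7 blood and endothelial markers 2 were called (28.6%). CD68, a lysosomal protein of macrophages, rose by 1.55. CDH5, an endothelial cadherin, fell by 2.19, the only one of these markers called lower. Their summed signal was 7449 to 7842 in control and 3274 to 3400 in SAHA. Most of the control sum came from CDH5, at 12.73 ± 0.03 in control and 10.54 ± 0.03 in SAHA, so the sum mainly follows this gene. The blood marker PTPRC was at 4.05 ± 0.07 in control and 4.08 ± 0.12 in SAHA. The list of 5 rhabdoid and mesenchymal markers had mixed calls: 1 was higher, 3 were lower and KRT8 did not pass (80.0% called). KRT8 and VIM, which rhabdoid cells typically express together, were at 13.55 ± 0.01 and 12.81 ± 0.03 in control, and VIM and KRT18 changed by -0.18 and -0.21. FN1, fibronectin, rose by 3.25, from 7.48 ± 0.34 to 10.73 ± 0.02. SMARCB1, whose loss is typical of rhabdoid tumours, was at 7.74 ± 0.04 in control and 7.22 ± 0.05 in SAHA, and whether this is background was not tested. Medians of the linear signal were 142 to 149 per array, and the log2 levels of all genes had correlations of 0.997 to 0.999 within groups and 0.953 to 0.954 across them (Pearson, across genes, which are not independent replicates).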

How the data were processed

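The authors deposited 1 signal intensity per probe set and array, made with RMA per the submitters' processing notes, a method that corrects background, gives all arrays 1 distribution and combines probes. Its version, the annotation and the build were not given in the sources used here. These deposited intensity values were linear, from 6.56 to 20338, so log2 was taken. Of 33252 probe sets 19460 named exactly 1 gene, 1754 several and 12038 none, and symbols were updated through Entrez identifiers with RefSeq GRCh38.p14 (19429 matched). Each gene kept its probe set of highest mean over 6 arrays, and each member had 1. Dim genes were kept.

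The groups were compared in limma 3.58.1 (R 4.3.3, lmFit, eBayes, no covariates, two-sided) over all 18417 genes with Benjamini-Hochberg adjustment. Every adjusted p is limma's. Levels are log2 means ± SD of 3 arrays, and differences are SAHA minus control. Having 3 arrays a group limits precision. The fit was tested on simulated data.

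Members and lists were chosen with earlier results of these data known. Values on all arrays were to be given for members changed at least 2-fold (at most 15) and the 5 of highest mean, other called members by change, up to 4 called genes per list, and per family the member of highest level that did not pass. Some list genes are left out for length, and per-array values of further called members were added. Named outside that rule, with values seen, were GABRE, CHRNB4, GABRA3, HTR3D, REST, GAD1 and the genes of the level and marker checks. So were CACNG2, CACNG3, CACNG4, CACNG8, GAD2 and SHMT1, whose values under the alternatives are not given here. Promoter letters were searched in 250 bases.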

Additional observations from a re-analysis of the deposited data

How the results depend on the processing

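Counts and named genes were recomputed with a further quantile normalization, cyclic loess scaling, median centring, 50 added before log2, 2 filters on dim genes, probe sets averaged per gene, probe sets kept apart, a trended robust eBayes, array weights, the replicate block, and each array left out. Background correction could not be redone from RMA values, and no slide or scan batch was used here. After a further quantile normalization 15 members were lower and their median change was -0.038. That setting moved the median of all genes to -0.031. Without genes under a mean of 5 the median of the 43 members left was 0.023. Without genes under the median level 4 members were left, 1 higher and 2 lower, with a median of -0.15. With 1 array left out, 14 to 16 members were higher and 7 to 9 lower, the share of all genes called was 55.3% to 59.3%, and the members' median was -0.023 to 0.024. The last value was that without control replicate 3. With 1 array left out 3 to 6 members, in place of 5, were called with at least 2-fold.

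The labels do not say whether the numbers 1 to 3 pair the arrays. Deviations from the group means correlated at -0.030, -0.17 and -0.0042 for equal numbers and at -0.074 to 0.10 for unequal numbers. With 3 arrays a group these values cannot show whether the arrays were paired. With the replicate block 16 members were higher and 7 lower, their median was -0.0045 and 57.6% of all genes were called.

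Of the 34 members that did not pass, 16 changed sign under at least 1 alternative, and of the 23 called none did. Of the members set out with both means, 5 changed sign. CHRNG was at -0.014 after a further quantile normalization. With 1 array left out the difference ran from -0.25 to 0.043 for GABRA2, from -0.011 to 0.080 for GRIN3B, from -0.00071 to 0.062 for CHRNG, from -0.12 to 0.039 for GRID1 and from -0.074 to 0.042 for CHRNB4. Apart from the shrinkage that an added offset gives by construction and the smaller number of genes left by the filters, the cause of these shifts was not tested.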
